A study of Homo sapiens with 6 samples.

Results

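The 10 genes described here respond to low oxygen and were measured in SUM159, an established human breast carcinoma line of the triple-negative class, with and without decitabine. The genes are VEGFA, ADM, ANGPTL4, LOX, EGLN1, NDRG1, KDM3A, ERO1A, LDHA and PGAM1. Features were chosen by their name, where the platform annotation gave one of these symbols as the single name of an array feature, and, for a gene with several features, by the highest mean over the 6 arrays. All 10 genes had a named feature, 1 each, so the mean decided nothing, and they are 10 of 14884 genes measured by a named feature. The genes were proposed with earlier results of these data known, so their tests describe these genes and are no independent evidence.

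The 6 arrays comprised 3 untreated samples, kept 72 h in control medium, and 3 samples treated for 72 h with 1 µM decitabine in medium changed every day. Decitabine, an analogue of deoxycytidine, is incorporated into DNA, where it binds DNA methyltransferases and depletes them. The treatment protocol calls the drug a deoxy form of azacytidine, and the control titles also carry the dose, which was not read as a treatment. The labels do not say whether control medium held the solvent, whether cells were kept in normal or lowered oxygen, or whether the samples within a group came from separate cultures. The p-values therefore cover the spread among these samples alone, and that spread may be technical. No genotype change is given for either group.

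Values in the deposited table ran from 0.17 to 12.89 with 2 decimals and were taken to be log2 expression, although the log base is not stated. Array medians over all features were 3.03 and 2.98 in the untreated and decitabine arrays of replicate 1, and 2.29 to 2.42 in the other arrays. Same-numbered arrays of both groups deviated together (correlations of 0.558 to 0.682 over genes), and groups were compared with the replicate number as a block. A gene is said to have risen or fallen where the limma p-value, adjusted over all 14884 genes by the Benjamini-Hochberg method, was under 0.05. By this rule 7.79% of all genes rose and 5.37% fell, 13.2% in all. Without the block 2.01% rose and 1.02% fell.

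The cells' markers were read from the same arrays. The mesenchymal marker VIM lay at 8.66 to 9.68 and the hormone receptor genes ESR1 and PGR at 1.50 to 2.43 and 1.54 to 2.95, while no background level was used that could show absence. The summed level of the 4 measured of 5 mesenchymal-line markers was 9.87 to 10.3 in untreated and 9.36 to 9.46 in decitabine arrays. In that list AXL, a receptor tyrosine kinase, fell by 1.79 on the log2 scale (SE 0.12, limma adjusted p = 0.00138; 0.00361 without the replicate block) and ZEB1, a repressor of epithelial genes, fell by 0.51 (SE 0.12, adjusted p = 0.0438; 0.48 without the block). For ZEB1 the groups overlapped, at 6.09 to 6.67 in untreated and 5.53 to 6.21 in decitabine arrays. In the same list VIM changed by -0.55 and CD44 by 0.27, and neither passed. The summed level of the 5 measured of 7 luminal markers was 6.05 to 6.35 and 6.14 to 6.41. Within it the epithelial adhesion gene EPCAM rose by 1.10 (SE 0.14, limma adjusted p = 0.00829; 0.127 without the block) and was higher in all 3 pairs without overlap between the groups. The other luminal markers did not pass: ESR1 changed by -0.18, PGR by 0.28, GATA3 by -0.11 and FOXA1 by -0.08. The summed level of 3 of 5 endothelial markers was 4.44 to 5.06 and 4.46 to 4.84, and that of 2 of 4 adipocyte markers 3.03 to 4.03 and 3.10 to 3.81. The 2 measured of 5 leukocyte markers summed to 2.95 to 3.33 and 3.59 to 3.71, with CD14 higher by 0.72 (SE 0.14, limma adjusted p = 0.0247; 0.115 without the block) and LYZ changed by -0.09. None of 4 erythroid markers was analysed here. The part of these shifts in the results was not tested.

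Cells sense oxygen through prolyl hydroxylases, of which EGLN1 (PHD2) is the main one, and these enzymes mark the alpha subunit of hypoxia-inducible factor (HIF) for destruction by the VHL ubiquitin ligase. When oxygen falls, HIF escapes, pairs with ARNT and binds short DNA cores in the control regions of its target genes. The targets raise blood supply (VEGFA, ADM, ANGPTL4), change the matrix (LOX), move metabolism to glycolysis and lactate (LDHA, PGAM1), support oxidative protein folding (ERO1A) and histone demethylation (KDM3A), and feed back on the pathway (EGLN1). Several, VEGFA among them, also answer to other stress signals, so their RNA level alone is no measure of HIF.

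The sequence before the start of these genes was examined for the HIF binding core, because the genes are grouped as hypoxia-responsive, and for CpG dinucleotides, which DNA methyltransferases modify. RefSeq promoters (GRCh38.p14) were matched by gene ID for 8 of the 10 genes, and for VEGFA and NDRG1 none was used here. In the 250 bases before the start, ACGTG or GCGTG was searched on both strands, and overlapping matches counted as 1 site. CACGTG, which reads as ACGTG on both strands, is also the core of the E-box. The promoters of 4 genes are shown, chosen after the values were seen. They are those of LOX, the gene that rose and the one with the most sites, of EGLN1, the only gene besides VEGFA with a negative change, of LDHA, a glycolytic gene with several sites, and of PGAM1, the one without a site. They are printed 5′ to 3′ on the gene's strand, with the matched cores in capitals.
LOX promoter (chr5:122078260-122078509, - strand): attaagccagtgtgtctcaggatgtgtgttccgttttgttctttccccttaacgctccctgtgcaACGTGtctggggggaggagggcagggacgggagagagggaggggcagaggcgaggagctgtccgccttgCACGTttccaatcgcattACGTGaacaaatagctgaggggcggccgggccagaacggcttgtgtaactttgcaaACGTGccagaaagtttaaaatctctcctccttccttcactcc
EGLN1 promoter (chr1:231422288-231422537, - strand): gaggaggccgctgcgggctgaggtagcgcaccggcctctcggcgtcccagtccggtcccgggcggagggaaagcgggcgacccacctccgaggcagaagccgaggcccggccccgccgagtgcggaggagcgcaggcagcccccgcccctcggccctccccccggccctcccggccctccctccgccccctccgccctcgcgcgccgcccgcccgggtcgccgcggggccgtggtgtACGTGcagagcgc
LDHA promoter (chr11:18394313-18394562, + strand): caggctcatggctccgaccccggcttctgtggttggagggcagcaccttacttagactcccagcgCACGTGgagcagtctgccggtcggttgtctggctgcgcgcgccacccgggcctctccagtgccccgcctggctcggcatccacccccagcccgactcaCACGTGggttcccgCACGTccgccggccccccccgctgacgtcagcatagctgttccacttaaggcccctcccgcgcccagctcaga
PGAM1 promoter (chr10:97427568-97427817, + strand): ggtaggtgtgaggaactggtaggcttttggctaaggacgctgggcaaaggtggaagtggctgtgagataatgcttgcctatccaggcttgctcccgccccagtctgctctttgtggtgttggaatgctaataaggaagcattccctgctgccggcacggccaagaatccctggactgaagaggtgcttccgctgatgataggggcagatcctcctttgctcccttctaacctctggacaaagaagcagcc

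The LOX promoter held 4 sites, which began 185, 116, 98 and 42 bases before the start, and 13 CpG dinucleotides. LDHA held 3 sites, at 185, 87 and 73 bases before the start, the first and second of them CACGTG, and 22 CpG. EGLN1 held 1 site, 13 bases before the start, among 36 CpG, and PGAM1 had no site and 5 CpG. ERO1A held 2 sites and 39 CpG, and ADM, ANGPTL4 and KDM3A each held 1 site and 16 CpG. Thus 7 of the 8 promoters held a core, against 52.2% of the promoters of the 10749 measured genes with one (21.2% for ACGTG, 40.6% for GCGTG), and 2.63% of those held 4 or more sites. The median over the measured genes was 18.0 CpG, with quartiles of 7.0 and 26.0. Over the 10749 measured genes with a promoter, 15.7% of the 5609 with a core and 13.0% of the 5140 without one changed after decitabine, a difference that was not tested. A match is a description of the letters, and these arrays measured neither binding nor methylation.

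Of the 10 genes, VEGFA fell (all genes that fell, 5.37%) and LOX rose (all genes that rose, 7.79%), and the other 8 did not pass the test. VEGFA and EGLN1 had lower values after decitabine in every same-numbered pair, and the other 8 had higher values in every pair. A single direction in all 3 pairs was found in 44.8% of all genes, and a higher value in all 3 in 22.9%. The median change of the 10 genes was 0.32 on the log2 scale, against -0.02 for all genes. VEGFA was lower and LOX, ANGPTL4, ERO1A and KDM3A were higher with no overlap between the groups, as were 8.74% (lower) and 11.3% (higher) of all genes. Nothing is read from these shares, since the genes were proposed with the data known.

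**Figure D1:**
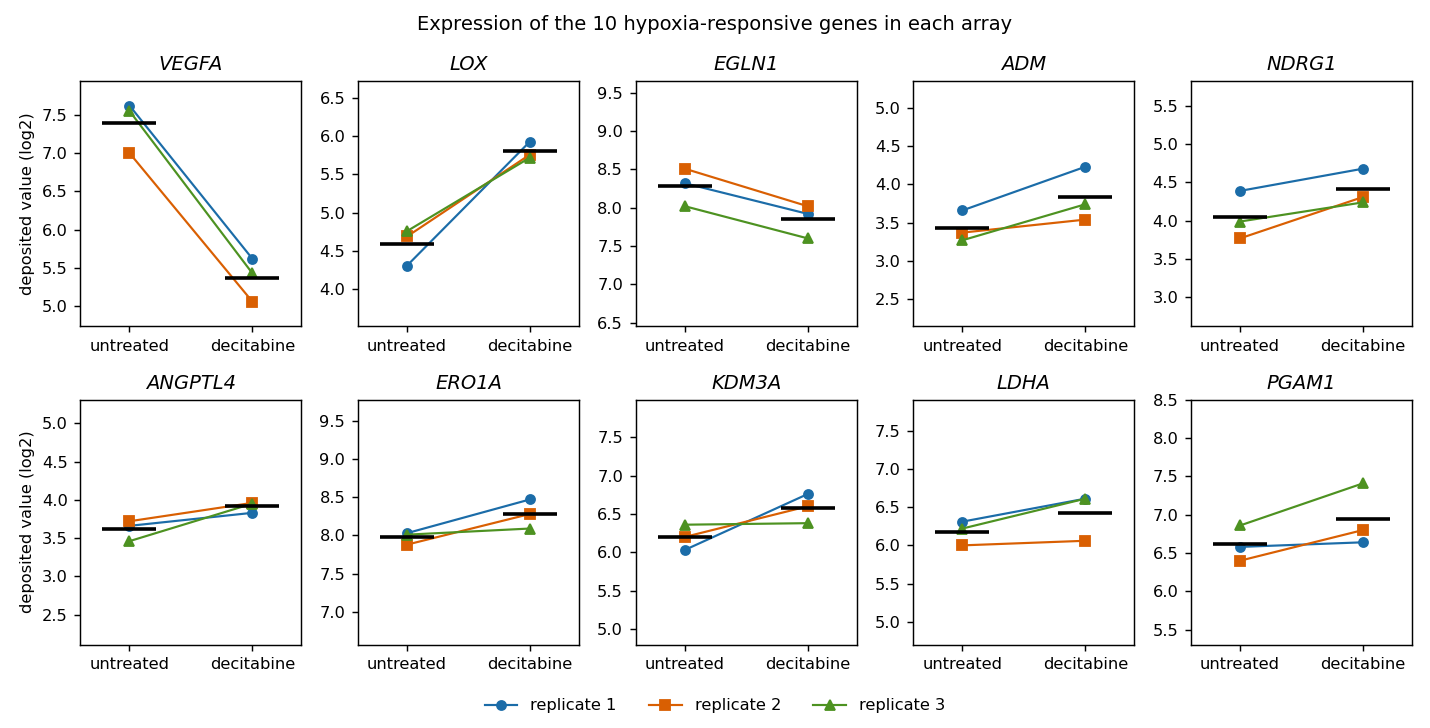
Deposited log2 value (vertical axis, a span of equal height in each panel) of each of the 10 genes in the 3 untreated and 3 decitabine arrays. Coloured lines join arrays of the same replicate number and black bars are group means. VEGFA went from 7.00 to 7.62 down to 5.06 to 5.62, LOX went from 4.31 to 4.76 up to 5.72 to 5.93, and the other genes moved less.

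VEGFA (Entrez Gene 7422), the main growth factor for blood vessels, fell 4.06-fold. Its values were 7.62, 7.00 and 7.55 in untreated replicates 1, 2 and 3, and 5.62, 5.06 and 5.43 in decitabine replicates 1, 2 and 3. Every treated value lay well below every untreated one, and replicate 2 was the lowest array of both groups. The group means were 7.39 ± 0.34 and 5.37 ± 0.28 (SD, n = 3 per group), so the change of -2.02 (SE 0.12, 95% interval -2.32 to -1.72, limma adjusted p = 0.00104) was several times the spread within either group. The pairs gave -2.00, -1.94 and -2.12, with an SD of 0.09. By size the fall ranked 22 from the most negative of 14884 genes.

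ADM (133), adrenomedullin, a peptide that widens vessels, had values of 3.66, 3.37 and 3.27 in untreated and 4.23, 3.54 and 3.74 in decitabine replicates 1, 2 and 3. The groups overlapped, and replicate 1 was the highest array of both. The change was 0.40 (SE 0.14, interval 0.07 to 0.74, limma adjusted p = 0.116), and the pairs gave 0.57, 0.17 and 0.47.

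ANGPTL4 (51129), a secreted inhibitor of lipoprotein lipase that also acts on vessels, was at 3.66, 3.72 and 3.46 in untreated and 3.83, 3.96 and 3.95 in decitabine arrays. The groups did not overlap, which held for 20.1% of all genes, but the nearest values were 3.72 and 3.83. The change was 0.30 (SE 0.13, interval -0.02 to 0.62, limma adjusted p = 0.202). VEGFA thus fell while the values of these other secreted factors were slightly higher.

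LOX (4015), lysyl oxidase, which crosslinks collagen and elastin in the matrix, rose 2.32-fold. Its values were 4.31, 4.69 and 4.76 in untreated replicates 1, 2 and 3, and 5.93, 5.76 and 5.72 in decitabine replicates 1, 2 and 3. The treated arrays spanned 0.21 and above all untreated arrays, of which replicate 1 was the lowest. The change was 1.22 (SE 0.17, interval 0.81 to 1.62, limma adjusted p = 0.00952). It was larger in pair 1 (1.62) than in pairs 2 and 3 (1.07 and 0.96), and in size it ranked 319 from the most positive of all genes.

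Leaving out both arrays of any 1 replicate number could not turn the direction of either gene, since all its pairs shared a sign. The changes were then -2.06 to -1.97 for VEGFA and 1.01 to 1.34 for LOX. Neither then passed the test (limma adjusted p of 0.0652 to 0.106 and 0.0967 to 0.173), and nor did any of the 14884 genes, of which 2449 to 3514 had an unadjusted p under 0.05. In fits without the block that left out single arrays, VEGFA passed in all 6 (adjusted p of 0.0124 to 0.0399). LOX passed only without untreated replicate 1 (0.0423) and was above the threshold when untreated replicate 2 (0.106), untreated replicate 3 (0.0657), decitabine replicate 1 (0.0783), decitabine replicate 2 (0.110) or decitabine replicate 3 (0.0888) was left out.

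EGLN1 (54583), the oxygen-sensing prolyl hydroxylase itself, had values of 8.32, 8.51 and 8.02 in untreated and 7.92, 8.02 and 7.60 in decitabine replicates 1, 2 and 3. The groups touched at 8.02, while the pairs gave -0.40, -0.49 and -0.42, the smallest spread among the 10 genes (SD 0.05). The change was -0.44 (SE 0.12, interval -0.73 to -0.15) and did not pass the test (limma adjusted p = 0.0671). It did pass where the dimmer 50% of genes were left out (0.0260) and with an intensity-dependent variance (0.00922), and it was 0.486 without the block.

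NDRG1 (10397), a stress-induced protein of cell differentiation, was at 4.39, 3.77 and 3.99 in untreated and 4.68, 4.31 and 4.24 in decitabine replicates 1, 2 and 3. Untreated replicate 1 lay above the treated replicates 2 and 3, so the groups overlapped. The change was 0.36 (SE 0.13, interval 0.04 to 0.68, limma adjusted p = 0.132).

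KDM3A (55818), a histone H3 lysine 9 demethylase that uses oxygen, was at 6.03, 6.20 and 6.36 in untreated and 6.76, 6.60 and 6.38 in decitabine replicates 1, 2 and 3. The groups were parted by 0.02 only, with untreated replicate 3 the highest of its group and treated replicate 3 the lowest. The pairs ran from 0.73 to 0.02, the widest spread of the 10 genes (SD 0.35, as for LOX), around a change of 0.38 (SE 0.17, interval -0.03 to 0.79, limma adjusted p = 0.203).

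ERO1A (30001), the oxidase of the endoplasmic reticulum that drives disulfide formation, was at 8.03, 7.88 and 8.01 in untreated and 8.47, 8.28 and 8.09 in decitabine replicates 1, 2 and 3. The groups did not overlap, though treated replicate 3 was only just above untreated replicate 1. The change was 0.31 (SE 0.13, interval -0.02 to 0.64, limma adjusted p = 0.206).

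LDHA (3939), the lactate dehydrogenase subunit that favours lactate, was at 6.31, 6.0 and 6.22 in untreated and 6.61, 6.06 and 6.61 in decitabine replicates 1, 2 and 3. Treated replicate 2 fell within the untreated range. The change was 0.25 (SE 0.13, interval -0.07 to 0.57, limma adjusted p = 0.280), the smallest among the 10 genes.

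PGAM1 (5223), the phosphoglycerate mutase of glycolysis, was at 6.58, 6.40 and 6.86 in untreated and 6.64, 6.80 and 7.41 in decitabine replicates 1, 2 and 3. The groups overlapped, and replicate 3 was the highest array of both. The change was 0.34 (SE 0.14, interval -0.02 to 0.69, limma adjusted p = 0.196). PGAM1 has the near-identical copy PGAM4, so their array signals may not be fully separate. The feature of PGAM4 changed by -0.26 (SE 0.12, limma adjusted p = 0.219).

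Across the 7 genes with positive changes that missed the threshold, changes lay between 0.25 and 0.40 and adjusted p-values between 0.116 and 0.280. The upper ends of their intervals were 0.57 to 0.79, below the change of 1.22 for LOX. They did not move in step: the largest pair difference was in replicate 1 for ADM, KDM3A and ERO1A, in replicate 2 for NDRG1, and in replicate 3 for ANGPTL4, LDHA and PGAM1.

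**Figure D2:**
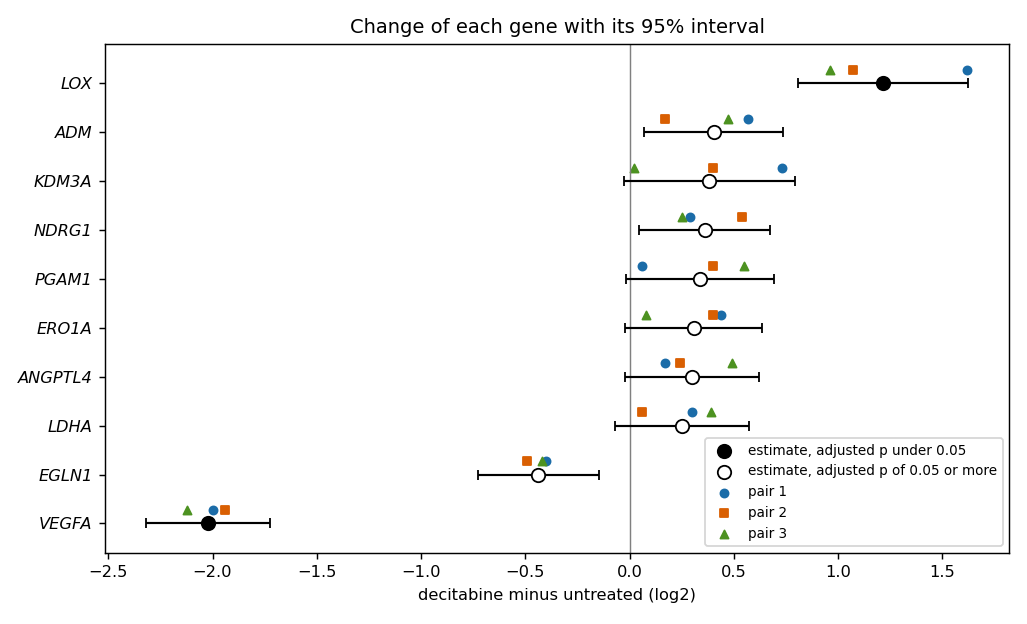
Decitabine minus untreated (log2, horizontal axis) for each of the 10 genes with its 95% interval from the limma fit with the replicate block; filled circles passed the adjusted threshold, and small symbols are the 3 same-numbered pairs. VEGFA (-2.02) and LOX (1.22) lie furthest from 0, EGLN1 is at -0.44, and the other 7 genes lie between 0.25 and 0.40. The intervals are not adjusted for the number of genes, and those of EGLN1, ADM and NDRG1 also exclude 0.

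The other genes of the oxygen-sensing pathway were then read from the same fit. Of 10 measured of 19 listed genes of oxygen sensing and HIF, EGLN1 included, none passed the limma test, against 13.2% of all genes. Nothing is read from this count, as the list is short and 3 of its genes had an unadjusted p under 0.05. The median change was -0.18. EPAS1, the HIF-2 alpha subunit, changed by -0.41 (SE 0.12, limma adjusted p = 0.0821), and its values of 7.64, 7.96 and 7.87 in untreated and 7.30, 7.57 and 7.37 in decitabine replicates 1, 2 and 3 did not overlap. SIAH1, a ubiquitin ligase that acts on the prolyl hydroxylases, changed by -0.38 (SE 0.13, adjusted p = 0.112). ARNT, the partner of HIF alpha subunits, changed by -0.01 (SE 0.14, interval -0.34 to 0.32), and EGLN3, another prolyl hydroxylase, by 0.19 (SE 0.18). EP300 and CREBBP, the histone acetyltransferases that HIF recruits, changed by 0.30 and -0.15. HIF1A and VHL were not analysed here. With the dimmer 50% of genes left out 3 of the 8 genes still tested passed, EGLN1, EPAS1 (0.0331) and SIAH1 (0.0499), all with lower values, beside 32.8% of all 7442 genes tested there. With an intensity-dependent variance 2 of the 10 passed, EGLN1 and EPAS1 (limma adjusted p = 0.0175), beside 17.9% of all genes.

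Around VEGFA, receptors and vessel factors changed in both directions. Of 19 measured of 22 listed genes of VEGF and angiogenic signalling, VEGFA included, 3 rose and 2 fell. VEGFA was among those that fell, 14 genes did not pass, and the median change was -0.10. The share that changed was 26.3%, against 13.2% of all genes. With the dimmer genes left out 0 of the 9 still tested rose and 2 fell, beside 32.8% changed of all 7442 genes tested there. NRP1, a co-receptor of VEGFA, fell from 8.65, 8.79 and 8.83 in untreated replicates 1, 2 and 3 to 8.04, 7.70 and 7.55 in the treated ones. The groups did not overlap, and the change was -0.99 (SE 0.16, limma adjusted p = 0.0167, and 0.0508 without the block). ANGPT1, the agonist of the TIE2 receptor, rose by 2.06 (SE 0.34, adjusted p = 0.0169) from 3.29, 2.45 and 1.59 to 4.26, 4.86 and 4.40. Its untreated values were widely spread, and the pairs gave 0.97, 2.41 and 2.81.

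ANGPT2, which modulates the same receptor, rose by 1.62 (SE 0.23, limma adjusted p = 0.0104, and 0.0562 without the block). Its values were 3.14, 1.98 and 2.09 in untreated and 4.26, 4.25 and 3.57 in decitabine replicates 1, 2 and 3. RAMP2, a subunit of the adrenomedullin receptor, rose by 1.74 (SE 0.39, adjusted p = 0.0398, and 0.170 without the block), with 5.04, 4.46 and 2.66 in the treated replicates 1, 2 and 3 against 2.12 to 2.62. Treated replicate 3 was thus barely above the untreated arrays. CALCRL, the partner of RAMP2 in that receptor, named here after its value was seen, changed by -0.49 (SE 0.20, adjusted p = 0.173). The VEGF receptor genes FLT1, KDR and FLT4, likewise named after their values were seen, changed by 0.06, 0.24 and -0.10 and did not pass. Their values were low, at 1.81 to 2.26, 2.72 to 3.62 and 1.85 to 3.30, and those of CALCRL were 1.91 to 3.52.

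The glycolysis genes had changes on both sides of 0. Of 9 measured of 25 listed genes of glycolysis and lactate, LDHA and PGAM1 included, none passed the limma test, against 13.2% of all genes. Of the 9, 1 had an unadjusted p under 0.05, and nothing is read from the count in so short a list. Their changes ran from -0.42 to 0.34 with a median of 0.04. The lowest was GPI, glucose-6-phosphate isomerase, named after its value was seen, at -0.42 (SE 0.12, adjusted p = 0.0793). It was the 1 gene of this list that passed with the dimmer 50% of genes left out (0.0318) and with an intensity-dependent variance (0.0142). The 16 other listed genes, the glucose transporters among them, were not analysed here.

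Among enzymes of collagen, 6 of 12 listed genes were measured, of which LOX rose and its relative LOXL1 changed by -0.57 (SE 0.14, limma adjusted p = 0.0487, and 0.262 without the block or 0.0526 over all named features). The list median was -0.14, and 33.3% of its 6 measured genes passed, against 13.2% of all genes. Of 6 measured of 12 genes of oxidative protein folding, ERO1A included, GPX7 rose by 1.15 (SE 0.14, adjusted p = 0.00628, and 0.108 without the block) and GPX8 changed by -0.90 (SE 0.12, adjusted p = 0.00889, and 0.0616 without the block). Both encode glutathione peroxidases of the endoplasmic reticulum. The median of this list was -0.09, and again 33.3% of the 6 measured genes passed.

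Of 23 measured of 35 other hypoxia-inducible genes, NDRG1, KDM3A and ERO1A included, 3 rose and 2 fell, with a median change of -0.02. The share that changed was 21.7%, against 13.2% of all genes. With the dimmer genes left out 2 of the 18 still tested rose and 3 fell, beside 32.8% changed of all 7442 genes tested there. DDIT4, which restrains mTORC1 under stress, changed by -3.28 (SE 0.12, limma adjusted p = 2.61e-04) and STC2, the secreted glycoprotein stanniocalcin-2, by -1.73 (SE 0.13, adjusted p = 0.00157). STC2 went from 8.17, 7.91 and 7.65 in untreated replicates 1, 2 and 3 to 6.56, 6.01 and 5.97, with no overlap. Both genes, like VEGFA, are also known to respond to other cell stress, but a cause of these falls was not tested.

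TMEM45A, a transmembrane protein, rose by 1.23 (SE 0.13, limma adjusted p = 0.00438), from 6.21, 6.23 and 6.22 to 7.54, 7.53 and 7.27. PLIN2, a coat protein of lipid droplets, rose by 1.15 (SE 0.19, adjusted p = 0.0171, and 0.260 without the block), and CA12, a membrane carbonic anhydrase, by 0.56 (SE 0.14, adjusted p = 0.0498, and 0.223 without the block). For PLIN2 the groups overlapped, at 3.44, 2.78 and 2.61 in untreated and 4.93, 4.11 and 3.24 in decitabine replicates 1, 2 and 3. CA12 missed the threshold after quantile normalization (0.0592) and over all named features (0.0536). Over these lists together, without the 10 genes, 61 of 110 listed genes were measured, of which 7 rose, 5 fell and 49 did not pass. That is 19.7% changed, against 13.2% of all genes, with a median of -0.11. The excess was not kept with the dimmer genes left out. Of the 61 genes 42 were then still tested, and 2 rose and 9 fell, beside 32.8% changed of all 7442 genes tested there. The lists were chosen with earlier results of these data known, and the list shares were not tested against that of all genes. Without the block 2 of the 61 genes rose (ANGPT1 and TMEM45A) and 2 fell (DDIT4 and STC2).

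**Figure D3:**
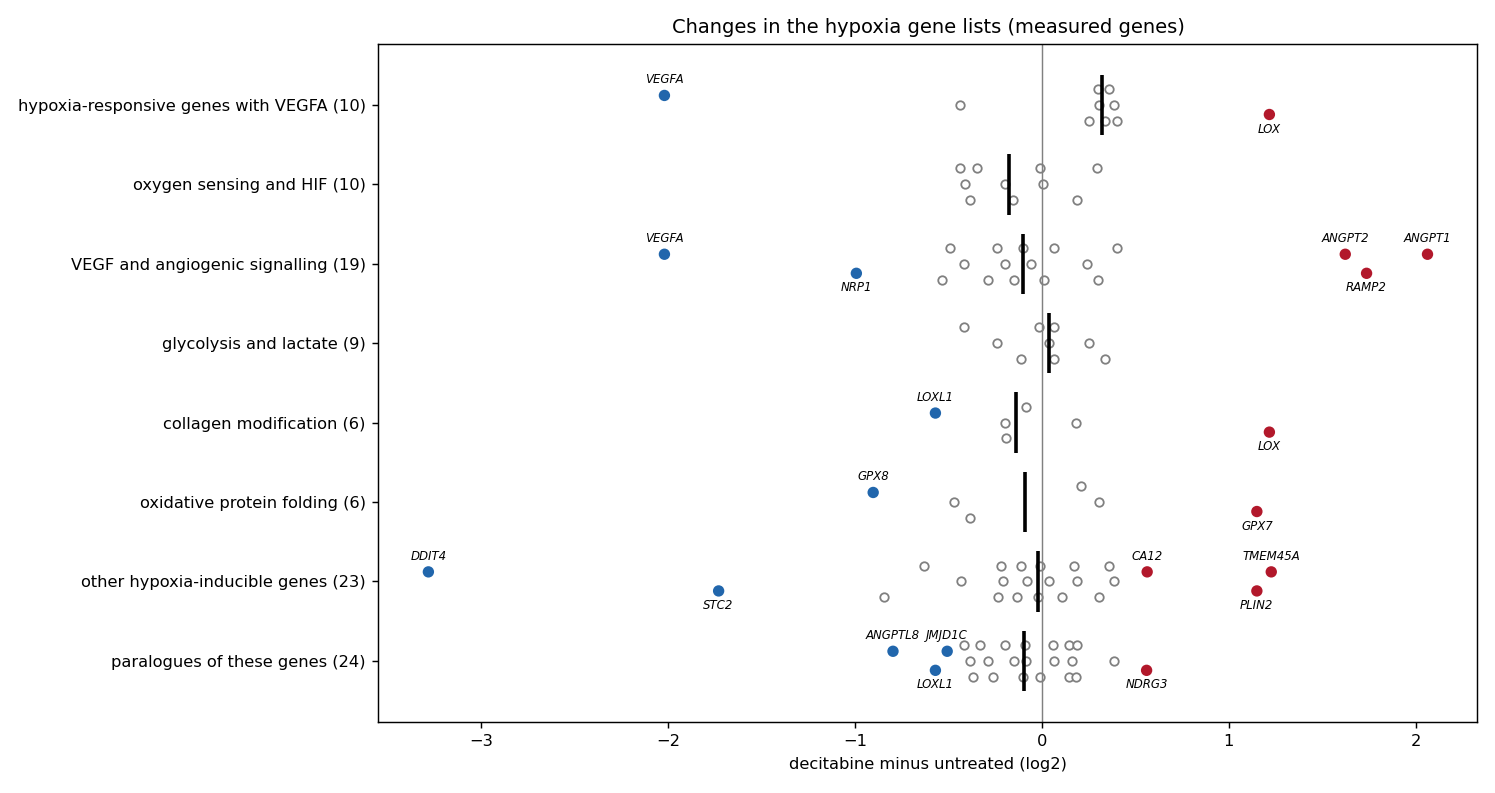
Decitabine minus untreated (log2, horizontal axis) of each measured gene in the hypoxia lists, with the number measured in brackets; red and blue points rose and fell at an adjusted p under 0.05, open points did not pass, and black bars are list medians. The medians lie between -0.18 and 0.32, and the named points lie on both sides of 0.

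Relatives of the 10 genes were compared with them by their own features. Of 24 measured of 30 listed paralogues, 1 rose and 3 fell, and the median change was -0.10. That is 16.7% changed, near the 13.2% of all genes, and without the block 0 of the 24 passed in either direction. VEGFB, VEGFC and PGF, which belong to the same growth factor family as VEGFA, changed by -0.15 (SE 0.19), -0.42 (SE 0.15) and -0.29 (SE 0.13), and none passed (limma adjusted p of 0.133 to 0.671). VEGFC varied widely between untreated replicates 1, 2 and 3, at 8.51, 7.52 and 6.11, and its treated arrays followed at 7.82, 7.10 and 5.97.

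NDRG3, of the NDRG1 family, rose by 0.56 (SE 0.13, limma adjusted p = 0.0415, and 0.225 without the block). JMJD1C, of the KDM3A family, changed by -0.51 (SE 0.12, adjusted p = 0.0479, and 0.316 without the block), and it missed the threshold with median centring (0.0526) and over all named features (0.0513). ANGPTL8, of the ANGPTL4 family, fell by 0.80 (SE 0.14, adjusted p = 0.0177, and 0.141 without the block). LDHB, the other main lactate dehydrogenase subunit, changed by 0.07 (SE 0.12, interval -0.23 to 0.37), KDM3B by 0.15 (SE 0.13) and ERO1B by -0.39 (SE 0.23), and these did not pass. The differences between relatives were not tested.

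The genes most like VEGFA over the 6 arrays were found by centring each gene on its own mean and taking the root mean square difference from VEGFA on the log2 scale, over 14883 other genes. The nearest was AXL, a receptor tyrosine kinase, at 0.24, followed by AOX1, aldehyde oxidase, at 0.26, CCDC102B at 0.26, PCK2, the mitochondrial phosphoenolpyruvate carboxykinase, at 0.27, and RELN, the matrix glycoprotein reelin, at 0.28. None of these 5 is in the hypoxia lists, and AXL is among the mesenchymal-line markers. Their changes were -1.79, -1.74, -1.78, -1.81 and -2.32, and the measure weighs the size of the fall most. VEGFA was at its lowest in replicate 2 of both groups.

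**Figure D4:**
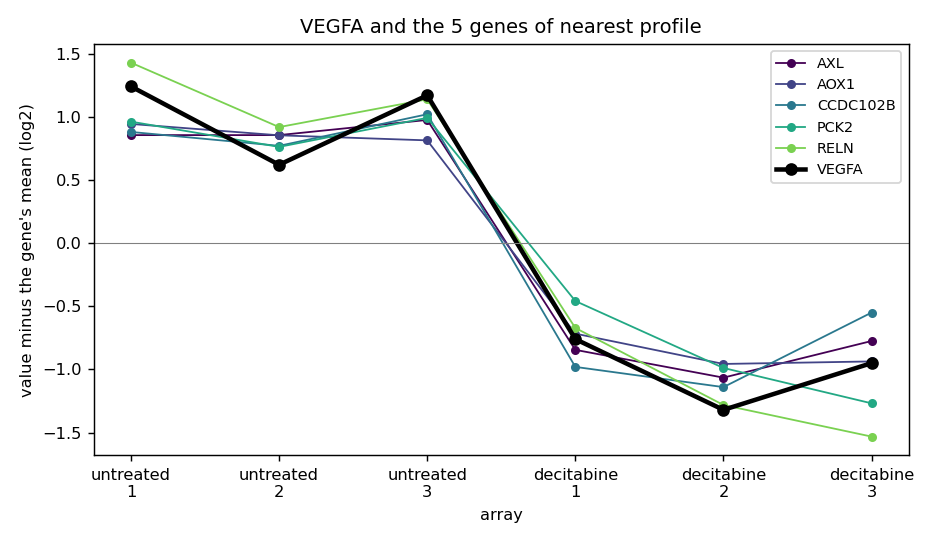
Value minus the gene's own mean (log2, vertical axis) in each array (horizontal axis) for VEGFA, in black, and the 5 genes of nearest profile, AXL, AOX1, CCDC102B, PCK2 and RELN. All 6 genes lie above 0 in the untreated arrays and below 0 in the decitabine arrays, and their root mean square differences from VEGFA are 0.24 to 0.28.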

How the data were processed

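Total RNA of 6 samples was labelled with biotin and measured on single-colour arrays, per the labels' protocols. The deposited log2 values are the authors' own, and per the submitters' processing notes the tool was the Transcriptome Analysis Console. Its version, the filters and the genome build were not given in the sources used here, nor was the normalization. The table held 48226 features, of which 16098 carried 1 gene symbol, none several, and 32128 none here. Entrez Gene IDs were matched to RefSeq (GRCh38.p14) for current symbols, in all 16098 cases, which gave 14884 genes.

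No further normalization or filter was applied. The comparison used lmFit and eBayes of limma 3.58.1 (R 4.3.3), two-sided, on all 6 arrays, with the replicate number of the titles as a block and Benjamini-Hochberg adjustment over 14884 genes; SE and 95% intervals come from this fit. The pairing by number is from the titles: deviations from group means correlated at 0.682, 0.595 and 0.558 between same-numbered arrays and at -0.483 to -0.006 between others. Deviations from a mean of 3 arrays add up to 0, so the negative values between others are partly built in. Arrays of the same number had identical values at 6.44% to 8.28% of features, against 0.42% to 0.83% for other pairs across groups. This cannot tell samples handled together from arrays processed together. The fit was tested on simulated data. The number of arrays limits the precision.

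The genes and lists were chosen with earlier results of these data known. Genes named were all 10, list members past the threshold (at most 5 each way), the oxygen-sensing genes and paralogues, and the 5 genes nearest to VEGFA. Alternatives were no block, each replicate number left out, quantile normalization, median centring, the dimmer 50% of genes left out, an intensity-dependent variance (limma-trend) and all named features.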

Additional observations from a re-analysis of the deposited data

How the results depend on the processing

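Of the 10 genes, each kept the sign of its change under all 9 alternatives, which was largely fixed in advance. Each gene had a single direction in every same-numbered pair, and several alternatives alter the test but not the change. The kept signs are therefore no support. Without the replicate block 299 genes rose and 152 fell, against 1159 and 800, and VEGFA and LOX still passed (limma adjusted p = 0.0067 and 0.0235). Of the 61 wider hypoxia genes 2 then rose and 2 fell, against 7 and 5. With a replicate number left out, 0 genes passed in limma in each direction, the 10 genes and the wider genes included (2449 to 3514 genes at an unadjusted p under 0.05), with VEGFA at -2.06 to -1.97 and LOX at 1.01 to 1.34; these fits have 2 pairs. In fits without the block that left out 1 array each, added after seeing the data, 95 to 321 genes rose and 33 to 156 fell, 0 to 1 of the 10 genes rose, and VEGFA changed by -2.21 to -1.86 and LOX by 1.08 to 1.30. With the dimmer 50% of genes left out 1311 of 7442 genes rose (17.6%) and 1132 fell (15.2%), against 7.79% and 5.37%; 2 of the 10 genes fell, as EGLN1 passed at -0.44, and of 42 wider genes tested 2 rose and 9 fell. With limma-trend 1536 of 14884 genes rose (10.3%) and 1132 fell (7.61%); again 2 of the 10 fell, with EGLN1 at -0.44, and 8 of 61 wider genes fell. Only some of the genes that did not pass were followed singly through the alternatives. Of these, 4 turned sign with a replicate number left out. ARNT ranged from -0.12 to 0.085, EGLN3 from -0.015 to 0.375, VEGFB from -0.395 to 0.035 and FLT4 from -0.40 to 0.245. Such turns among the other listed genes and the markers were not counted. The causes were not tested. Background was not measured, so small changes at dim levels are the least certain.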
